A study of Mus musculus with 4 samples.

Results

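Mast cell genes were followed in lumbar dorsal root ganglia (DRG, the clusters of sensory neuron cell bodies beside the cord) and in lumbar dorsal spinal cord after nerve injury. The group holds 7 genes of 21883 features in each table: the granule protease genes Cma1, Mcpt4, Tpsb2 and Cpa3, the receptor genes Kit and Ms4a2, and Hdc. They were chosen by gene symbol as known products or markers of mast cells, with earlier results of these data known. All 7 are listed in both tables.

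RNA came from wild-type young adult male mice, strain BL6/C57, examined 7 days after transection of the left sciatic and femoral nerves. The 4 libraries are ipsilateral (cut-side) DRG at levels L4 to L6, contralateral DRG at the same levels, ipsilateral lumbar dorsal cord and contralateral lumbar dorsal cord, with 1 library each. The contralateral side comes from operated mice and is not uninjured tissue, and the sources used here do not say whether animals were pooled. Each group being 1 library, differences could not be set against replicates and no tests were run.

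Mast cells are tissue-resident immune cells that lie along blood vessels and nerves and in the coverings of ganglia and brain. Their granules hold proteases of the chymase, tryptase and carboxypeptidase kinds, packed with histamine on serglycin proteoglycan, and are released when the high-affinity IgE receptor or other receptors are engaged. Growth and survival of mast cells depend on the receptor tyrosine kinase KIT, which binds stem cell factor. In peripheral nerve, mast cell degranulation is a known early event after injury.

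In the ipsilateral DRG the chymase genes Cma1 and Mcpt4 and the tryptase gene Tpsb2 stood above the contralateral DRG, at 2.33 to 3.54 times its level. Cpa3, Hdc and Ms4a2 also had ratios above 1, but with intervals that hold 1, and Kit was nearly equal between sides. In both dorsal cord libraries the 4 protease genes and Ms4a2 were listed at 0, and only Kit reached 1 FPKM there.

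Levels are in FPKM (fragments divided by transcript length in kilobases and by the library's mapped fragments), so they can be compared between genes. The log2 ratio used for counting is that of (ipsilateral + 1) over (contralateral + 1) FPKM, which understates differences of low genes. Genes were taken as measured where at least 1 of a tissue's 2 libraries reached 1 FPKM, and as 2-fold higher from a log2 ratio of 1 upwards and as 2-fold lower from -1 downwards. Plain folds are ratios of FPKM. Their 95% intervals rest on the standard error that the authors' fold and test statistic imply, which covers counting error as the authors modelled it and leaves out variation between animals. In a bulk library fewer cells of a type and less RNA per cell cannot be told apart.

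The DRG libraries carried the sensory neuron marker Avil at 270 FPKM ipsilaterally and 272 FPKM contralaterally and the Schwann cell gene Prx at 104 and 93.6 FPKM. The cord libraries carried Olig2 of the oligodendrocyte lineage at 19.7 FPKM on each side, and Prx at 0.20 FPKM on each side. The summed FPKM over all features was 442298 and 431795 in ipsilateral and contralateral DRG, and 442196 and 425636 in ipsilateral and contralateral cord. Read numbers are not known, but 1 read was worth 0.639 times as much FPKM in ipsilateral as in contralateral DRG, and 1.35 times as much in ipsilateral as in contralateral cord, so the ipsilateral DRG library was the deeper of its pair and the ipsilateral cord library the shallower.

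Cma1 and Mcpt4 lie in the chymase cluster of chromosome 14, where they and their relatives derive from a shared ancestral gene. In the files' mm9 coordinates Cma1 spans 56560288 to 56563498 and Mcpt4 spans 56678581 to 56681147. The table of mouse promoters from RefSeq (build GRCm38.p6, not the files' mm9) has an entry for 6 of the 7 genes, Tpsb2 being the one without. The 250 bases before the transcription start follow for the 2 chymase genes that stood higher, for Mcpt1, a cluster neighbour that was nearly silent here, and for Cpa3 and Ms4a2. Capitals mark the letters GATAA, the core of the site bound by GATA factors, on either strand, so that the other strand reads TTATC.
Cma1 (chr14:55944676-55944925, minus strand): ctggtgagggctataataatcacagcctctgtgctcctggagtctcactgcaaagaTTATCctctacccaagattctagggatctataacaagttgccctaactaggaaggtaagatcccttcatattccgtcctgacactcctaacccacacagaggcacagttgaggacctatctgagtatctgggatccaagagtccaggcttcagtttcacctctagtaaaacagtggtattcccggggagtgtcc
Mcpt4 (chr14:56062311-56062560, minus strand): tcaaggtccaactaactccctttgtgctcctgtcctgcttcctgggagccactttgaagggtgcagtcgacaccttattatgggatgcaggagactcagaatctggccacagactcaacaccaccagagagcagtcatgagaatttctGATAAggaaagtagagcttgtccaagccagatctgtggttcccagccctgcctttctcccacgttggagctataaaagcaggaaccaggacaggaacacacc
Mcpt1 (chr14:56017714-56017963, plus strand): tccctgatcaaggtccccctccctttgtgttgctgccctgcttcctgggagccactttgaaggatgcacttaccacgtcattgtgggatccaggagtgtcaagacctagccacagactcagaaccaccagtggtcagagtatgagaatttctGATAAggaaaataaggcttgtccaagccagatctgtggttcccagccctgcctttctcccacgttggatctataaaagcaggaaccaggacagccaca
Cpa3 (chr3:20242182-20242431, minus strand): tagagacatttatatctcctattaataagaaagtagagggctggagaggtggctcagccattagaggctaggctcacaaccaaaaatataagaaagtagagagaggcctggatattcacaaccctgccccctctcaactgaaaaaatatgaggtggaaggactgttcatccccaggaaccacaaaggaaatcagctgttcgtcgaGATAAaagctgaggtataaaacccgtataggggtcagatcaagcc
Ms4a2 (chr19:11623720-11623969, minus strand): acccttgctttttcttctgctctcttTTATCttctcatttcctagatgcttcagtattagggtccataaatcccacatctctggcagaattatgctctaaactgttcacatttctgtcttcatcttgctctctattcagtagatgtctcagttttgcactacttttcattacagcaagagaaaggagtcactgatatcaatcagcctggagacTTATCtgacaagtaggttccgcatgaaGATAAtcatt

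GATAA was present in 4 of the 6 members' upstream sequences, those of Cma1, Mcpt4, Cpa3 and Ms4a2, and in 23.0% of the 27025 mouse promoters of the same length. The Ms4a2 sequence held 3 matches. The match began 194 bases before the start in Cma1, 102 bases before it in Mcpt4, 98 in Mcpt1 and 45 in Cpa3. Longer forms contain the same core and overlap with it. The form TGATAA was in Mcpt4 and Mcpt1 and in 8.16% of all promoters, and the form AGATAA was in Cpa3 and Ms4a2 and in 10.3% of all promoters. No match to GATAA was found in these letters of Kit or Hdc, and CACGTG, an E-box form (6.05% of promoters), was in none of the 6. These matches describe the letters and are not evidence of binding.

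The upstream sequences of Mcpt4 and Mcpt1 were 86.4% identical over 242 aligned bases, with a shared run of 53 bases. Their levels were far apart all the same, as Mcpt1 was at 0.059 FPKM in ipsilateral DRG and listed at 0 in contralateral DRG. The Mcpt4 and Mcpt1 transcripts (GENCODE release M21) were 85.6% identical over 976 aligned bases, and the longest identical run was 46 bases. With Mcpt9, listed at 0 in all 4 libraries, Mcpt4 shares an identical run of 56 bases. Cma1 and Mcpt4 transcripts were 70.2% identical with a longest run of 27 bases, and Tpsb2 and Tpsab1 70.7% with a run of 23. How the authors placed reads that fit several relatives is not stated, so the Mcpt4 level is uncertain by the reads it shares with these copies. None of the 7 members overlaps another listed feature in the deposited table.

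Mcpt4, a mouse chymase of connective tissue mast cells, was the most abundant of the protease genes. It stood at 11.7 FPKM in ipsilateral DRG and 4.75 FPKM in contralateral DRG, a log2 ratio of 1.14. The plain fold was 2.45 with an interval of 1.38 to 4.36, and the authors' deposited table calls the difference (q = 0.0388). Cma1, which encodes mast cell protease 5, had the largest ratio of the members. Its level was 8.05 FPKM in ipsilateral DRG and 2.27 FPKM in contralateral DRG, a log2 ratio of 1.47. The fold of 3.54 had an interval of 1.83 to 6.86, and the authors' deposited table gives q = 0.00599.

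Those 2 chymase genes were the members at least 2-fold higher, out of 6 measured in DRG, and 0 were 2-fold lower. Over all measured DRG features 3.04% passed the 2-fold rule upwards and 0.784% downwards. Among features averaging 1 to 10 FPKM, the range of most members, 3.48% were 2-fold higher. They were also the 2 members that the authors' deposited table calls, where 4.64% of tested DRG features are called higher and 1.9% lower. By the plain fold, 4 of 7 members were at least 2-fold higher (Cma1, Mcpt4, Tpsb2 and Ms4a2), beside 7.65% of features above 0 in both DRG libraries. Of the 6 measured members 5 had a log2 ratio above 0, which held for 56.1% of measured features. The members' median log2 ratio was 0.69, beside 0.05 over all 13137 measured features.

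Tpsb2, the tryptase gene for mast cell protease 6 on chromosome 17 (25503278 to 25505037), was at 4.02 FPKM in ipsilateral DRG and 1.73 FPKM in contralateral DRG. Its log2 ratio of 0.88 fell short of the 2-fold rule because of the added 1 FPKM, while its plain fold was 2.33 with an interval of 1.12 to 4.88. The authors' deposited table does not call it (q = 0.193). Cpa3, the mast cell carboxypeptidase gene on chromosome 3 (20115515 to 20142080), was at 2.11 FPKM ipsilaterally and 1.34 FPKM contralaterally. That is a log2 ratio of 0.41 and a fold of 1.57, with an interval of 0.74 to 3.31 that holds 1, and the authors' deposited table gives q = 0.675.

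**Figure D1:**
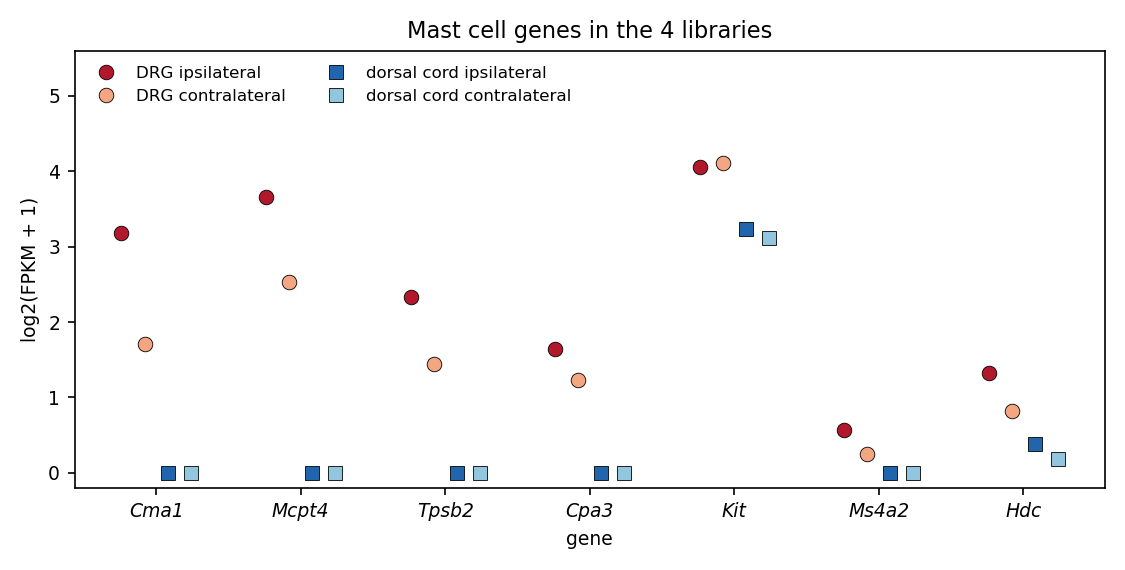
Level of each member as log2(FPKM + 1) on the vertical axis, by gene, with 1 point per library (circles DRG, squares dorsal cord; darker points ipsilateral). The protease genes are present in DRG, where Cma1 is at 8.05 and 2.27 FPKM in ipsilateral and contralateral libraries, and at 0 in both cord libraries, while Kit is present in all 4.

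The 4 protease genes together reached 25.8 FPKM in ipsilateral DRG and 10.1 FPKM in contralateral DRG, 2.56 times as much ipsilaterally. Mcpt4 made up 45.1% of this sum ipsilaterally and 47.1% contralaterally, and Tpsb2 15.6% and 17.1%. Cma1 took 31.2% ipsilaterally against 22.5% contralaterally, and Cpa3 took 8.16% against 13.3%. The order of levels was the same on both sides, with Kit highest, then Mcpt4, Cma1, Tpsb2, Cpa3, Hdc and Ms4a2. With 1 library a side there is no spread against which to set neighbours in that order.

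Hdc encodes histidine decarboxylase, the enzyme that makes histamine (chromosome 2, 126419404 to 126444401). It was at 1.50 FPKM in ipsilateral DRG and 0.77 FPKM in contralateral DRG, a log2 ratio of 0.50. The fold was 1.95 with an interval of 0.94 to 4.05, and the authors' deposited table gives q = 0.376. Ms4a2, the beta chain of the high-affinity IgE receptor (chromosome 19, 11691683 to 11698133), was the one member that did not reach 1 FPKM in DRG. It was at 0.48 FPKM ipsilaterally and 0.19 FPKM contralaterally, a fold of 2.56 with an interval of 0.51 to 12.7, and it was left untested in the authors' deposited table. A difference in Ms4a2 was not detectable at this depth.

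Kit was close between the DRG sides. The gene (chromosome 5, 75971012 to 76052746) was at 15.7 FPKM in ipsilateral DRG and 16.3 FPKM in contralateral DRG, a log2 ratio of -0.05. Its fold of 0.96 had an interval of 0.68 to 1.37. KIT is not confined to mast cells: a subset of sensory neurons, melanocytes and some spinal interneurons also carry it. On the plain log2 scale Cma1 exceeded Kit in its ratio by 1.88 (interval 0.79 to 2.96), Mcpt4 by 1.35 (0.37 to 2.32) and Tpsb2 by 1.27 (0.09 to 2.45). For Cpa3, Hdc and Ms4a2 the difference from Kit had an interval that holds 0. Among the proteases the ratio of Cma1 exceeded that of Cpa3 by 1.17, with an interval of -0.27 to 2.61, so the protease genes were not told apart at this precision.

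**Figure D2:**
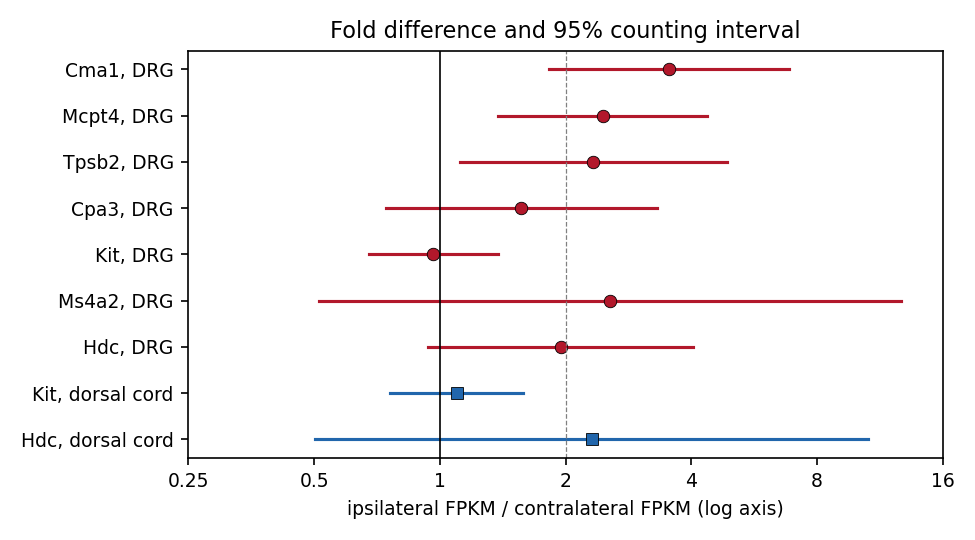
Ratio of ipsilateral to contralateral FPKM on a log axis for each member with both libraries above 0 (red circles DRG, blue squares dorsal cord), with lines for the 95% counting interval, a solid line at 1 and a dashed line at 2. The intervals of Cma1, Mcpt4 and Tpsb2 in DRG lie above 1, and that of Kit spans 0.68 to 1.37.

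In dorsal cord the members were absent or low, apart from Kit. Cma1, Mcpt4, Tpsb2, Cpa3 and Ms4a2 were listed at 0 in ipsilateral and in contralateral cord. Of the 12299 features at 1 FPKM or more in both DRG libraries, 0.667% were listed at 0 in both cord libraries. Cma1, Mcpt4, Tpsb2, Cpa3 and Kit are among those features, while Ms4a2 and Hdc were too low in DRG. The share was not matched to the members' DRG levels. Hdc was at 0.30 FPKM in ipsilateral cord and 0.13 FPKM in contralateral cord, a fold of 2.31 with an interval of 0.50 to 10.6. Kit was at 8.42 FPKM in ipsilateral cord and 7.67 FPKM in contralateral cord, with a log2 ratio of 0.12 and a fold of 1.10 (interval 0.76 to 1.58). Kit was the 1 member measured in cord, and 0 members were 2-fold higher and 0 lower there, beside 4.46% and 1.64% of all measured cord features. A log2 ratio above 0, as in Kit, held for 51.6% of measured cord features. The authors' deposited table calls 0 members in cord, where it calls 4.52% of tested features higher and 1.55% lower, and by the plain fold 1 of 2 members (Hdc) was 2-fold higher, beside 9.51% of features above 0 in both cord libraries. The tissue tables were normalised separately, so levels set across DRG and cord are approximate.

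Relatives of the members in the same gene families were near the limit of detection. Of 10 such protease genes, 1 reached 1 FPKM in DRG and 0 in cord. That one was Prss34, a tryptase gene of basophils and mast cells that also stands in the basophil list, at 0.19 FPKM in ipsilateral DRG and 1.06 FPKM in contralateral DRG (log2 ratio -0.79). Over all 10 genes in DRG, low ones included, 3 had a log2 ratio above 0 and 5 below. Cma2, the chymase gene next to Cma1, was at 0.66 FPKM ipsilaterally and 0.10 FPKM contralaterally, and its fold had an interval of 0.78 to 52.3. Ctsg lay the other way, at 0.31 FPKM ipsilaterally and 0.96 FPKM contralaterally, with an interval of 0.10 to 1.02. Mcpt8, a basophil protease gene, was at 0.77 FPKM ipsilaterally and 0.84 FPKM contralaterally. The mucosal protease gene Mcpt2 and Mcpt9 were listed at 0 in both DRG libraries, and the tryptase gene Tpsab1 was listed at 0 in ipsilateral DRG, against 0.086 FPKM in contralateral DRG.

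Receptors and regulators of mast cells were mostly low as well. Of 14 such genes 3 were measured in DRG, 2 of them 2-fold higher and 0 lower, beside 3.04% and 0.784% of measured DRG features. The list's median log2 ratio was 1.02 over those 3 genes and 0.07 over all 14. The 2 higher genes are not specific to mast cells. Fcer1g, the signalling chain that IgE and IgG receptors share across myeloid cells, was at 22.1 FPKM in ipsilateral DRG and 10.4 FPKM in contralateral DRG (log2 ratio 1.02). Cd63, a tetraspanin of lysosomes and secretory granules, was at 161 FPKM ipsilaterally and 66.6 FPKM contralaterally (1.26). Gata2, a transcription factor gene of mast cells, stayed under 1 FPKM, at 0.99 FPKM ipsilaterally and 0.25 FPKM contralaterally. The authors' deposited table calls Gata2 (q = 0.0371), with a fold of 3.96 and an interval of 1.65 to 9.53.

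The receptor genes closest to mast cells carried little signal. Fcer1a, the IgE-binding chain, was at 0.18 FPKM in ipsilateral DRG and listed at 0 in contralateral DRG. Mrgprb2, a mast cell receptor for basic peptides, was at 0.026 FPKM ipsilaterally and listed at 0 contralaterally, and Il1rl1, the interleukin 33 receptor gene, was at 0.41 and 0.17 FPKM. Other low genes of the list lay the other way, with the transcription factor gene Gata1 at 0.15 FPKM ipsilaterally and 0.33 FPKM contralaterally, Enpp3, a surface enzyme of basophils and mast cells, at 0.32 and 0.53 FPKM, Mrgprb1 at 0.037 and 0.057 FPKM, and Rgs13 listed at 0 ipsilaterally, against 0.059 FPKM contralaterally. Over all 14 genes, low ones included, 8 had a log2 ratio above 0 and 5 below. Defining protease genes were thus present, while IgE receptor chains specific to mast cells and basophils lay under 0.5 FPKM. In cord 5 of the 14 genes were measured, 2 above 0 and 3 below, with a median log2 ratio of -0.46. Of the 5, 1 was 2-fold higher (Fcer1g, at 40.9 FPKM ipsilaterally and 11.5 FPKM contralaterally) and 0 lower, beside 4.46% and 1.64% of measured cord features. The authors' deposited table calls 1 gene of this list higher in cord (Fcer1g) and 1 lower (Cd63, log2 ratio -0.92, q = 0.0178), beside 4.52% and 1.55% of tested features.

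Genes for granule contents and lipid mediators had a median log2 ratio of 0.36 over 11 measured of 12 in DRG. Of these 1 gene was 2-fold higher and 0 lower, beside 3.04% and 0.784% of measured DRG features. That gene, the leukotriene C4 synthase gene Ltc4s, was at 1.27 FPKM in ipsilateral DRG and listed at 0 in contralateral DRG. Hpgds, hematopoietic prostaglandin D synthase, was at 1.88 FPKM ipsilaterally and 0.64 FPKM contralaterally (0.81). Srgn, the serglycin gene, was at 10.8 and 9.66 FPKM (0.15), and Slc18a2, the vesicular monoamine transporter that loads histamine, at 1.16 and 1.63 FPKM (-0.28). The authors' deposited table calls 2 genes of this list higher in DRG, Hpgds and Serpinb1a, beside 4.64% of tested features. In cord 2 of 9 measured genes were 2-fold higher and 0 lower, beside 4.46% and 1.64% of measured cord features. They were Hpgds at 7.61 FPKM ipsilaterally and 2.20 FPKM contralaterally and Ptgs1 at 9.02 and 2.67 FPKM, in libraries where the mast cell protease genes were at 0. Macrophages and microglia also express both genes.

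Of 12 measured genes of IgE receptor and KIT signalling, 11 were above 0 in DRG, beside 56.1% of all measured features. There 0 were 2-fold higher and 0 lower, beside 3.04% and 0.784% of all measured features, and the median was 0.39. Kitl, which encodes stem cell factor, was at 26.1 FPKM in ipsilateral DRG and 18.5 FPKM in contralateral DRG (log2 ratio 0.48), and its fold had an interval of 0.99 to 2.01. In cord Kitl was at 5.59 FPKM ipsilaterally and 7.17 FPKM contralaterally. Inpp5d, the inositol phosphatase SHIP1, was the one gene of this list called higher in DRG by the authors' deposited table, at 2.28 FPKM ipsilaterally and 0.92 FPKM contralaterally. Over all tested DRG features that table calls 4.64% higher. In cord 5 of 12 measured genes were 2-fold higher and 0 lower, beside 4.46% and 1.64% of all measured cord features. Among the higher ones were Plcg2 at 4.97 FPKM ipsilaterally and 0.69 FPKM contralaterally and Lyn at 6.56 and 1.63 FPKM. In these cord libraries the 4 mast cell protease genes and Ms4a2 were listed at 0. The macrophage and microglia list had a median log2 ratio of 2.43 there over 7 measured genes. Which cells the signalling genes came from was not tested. Syk was not analysed here.

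Histamine receptors and histamine breakdown showed no 2-fold difference in either tissue. Over all measured features 3.04% were 2-fold higher and 0.784% lower in DRG, and 4.46% and 1.64% in cord. In DRG 4 of 8 genes were measured, 3 above 0 and 1 below, with a median of 0.11 that turned to -0.39 over the 2 genes left by a filter at 5 FPKM and to -0.12 by the plain ratio. The one below was Hnmt, histamine N-methyltransferase, at 7.30 FPKM in ipsilateral DRG and 13.4 FPKM in contralateral DRG (log2 ratio -0.80). The interval of its fold was 0.35 to 0.85, and the authors' deposited table does not call it (q = 0.0907). The receptor genes were low in DRG, with Hrh1 at 1.09 FPKM ipsilaterally and 0.83 FPKM contralaterally and Hrh4 listed at 0 in all 4 libraries. In cord the presynaptic receptor gene Hrh3 was at 10.7 FPKM ipsilaterally and 9.40 FPKM contralaterally.

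Targets of mast cell proteases were also looked at. F2rl1, the receptor PAR2 that tryptase cleaves, was at 0.44 FPKM in ipsilateral DRG and 0.12 FPKM in contralateral DRG. The receptor gene F2r was at 5.39 FPKM ipsilaterally and 9.55 FPKM contralaterally (log2 ratio -0.72), and fibronectin, Fn1, a chymase substrate, was at 15.5 and 7.80 FPKM (0.90). Over this list 5 of 10 genes were measured in DRG, with a median of 0.27 and 0 past 2-fold in either direction. In cord 6 were measured, with a median of 0.42 and again 0 past 2-fold. The shares over all measured features were 3.04% higher and 0.784% lower in DRG, and 4.46% and 1.64% in cord. The authors' deposited table calls 1 gene of this list higher in DRG (Fn1), beside 4.64% of tested features. In cord it calls 1 higher (Fn1) and 1 lower (Agtr1a), beside 4.52% and 1.55%. Agtr1a stayed under 1 FPKM in cord, at 0.026 FPKM ipsilaterally and 0.80 FPKM contralaterally.

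Markers of other cell types moved beside the protease genes in DRG. All 12 fibroblast genes of the meninges and connective tissue were above 0, 5 of them 2-fold higher and 0 lower, and their summed level was 873 FPKM ipsilaterally and 427 FPKM contralaterally. All 9 macrophage genes analysed were above 0, 8 of them 2-fold higher and 0 lower, with sums of 127 and 40.8 FPKM. DRG neuron genes went the other way, with all 7 below 0, 1 of them 2-fold lower and 0 higher, and sums of 1521 FPKM ipsilaterally and 1955 FPKM contralaterally. Over all measured DRG features 56.1% were above 0, 3.04% were 2-fold higher and 0.784% were 2-fold lower. Genes of spinal cord went both ways in DRG. The astrocyte water channel gene Aqp4 was at 2.04 FPKM in ipsilateral DRG and 5.10 FPKM in contralateral DRG (q = 0.00199 in the authors' deposited table), the oligodendrocyte gene Mog at 0.032 and 0.71 FPKM, and the glycine transporter gene Slc6a5 at 0.022 and 0.52 FPKM. Hoxc10 was at 8.86 FPKM ipsilaterally and 7.92 FPKM contralaterally, Gfap at 3.05 and 2.90 FPKM, and Lmx1b at 0.38 and 0.075 FPKM. Of the 8 genes 3 were measured, 0 of them 2-fold higher and 1 lower. Over all 8, low ones included, 3 had a log2 ratio above 0 and 4 below. The list summed to 14.4 FPKM ipsilaterally and 17.3 FPKM contralaterally. The part of these cell types and tissues in the protease gene differences was not tested.

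Summed markers of blood and marrow cells were not higher in ipsilateral DRG. Basophil and eosinophil genes summed to 7.07 FPKM in ipsilateral DRG and 18.2 FPKM in contralateral DRG. Of these 10 genes 3 were measured, all below 0, while 56.1% of measured DRG features were above 0. The eosinophil granule gene Prg2 accounted for most of that sum, at 4.54 FPKM ipsilaterally and 12.3 FPKM contralaterally (log2 ratio -1.26), a difference the authors' deposited table calls (q = 0.021). Cd200r3 was listed at 0 in all 4 libraries. Neutrophil genes summed to 273 and 289 FPKM, and red cell genes to 13850 and 14055 FPKM, in ipsilateral and contralateral DRG. Hba-a1, an alpha globin gene, made up most of the red cell sum, at 11578 and 11727 FPKM. Of the 5 red cell genes 1 was 2-fold higher and 0 lower, beside 3.04% and 0.784% of measured DRG features. That one was the beta globin gene Hbb-b1 at 17.3 FPKM ipsilaterally and 6.38 FPKM contralaterally, a fold of 2.71 with an interval of 1.31 to 5.62. The authors' deposited table does not call Hbb-b1 (q = 0.0869). Hbb-b1 shares sequence with other globin genes, and any part of shared reads in its difference was not tested. Lymphocyte genes summed to 2.47 and 2.73 FPKM. The melanocyte genes Tyr and Mlana, of cells that also carry KIT, were listed at 0 in both DRG libraries, and Tyrp1 was at 2.79 FPKM ipsilaterally and 2.52 FPKM contralaterally.

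**Figure D3:**
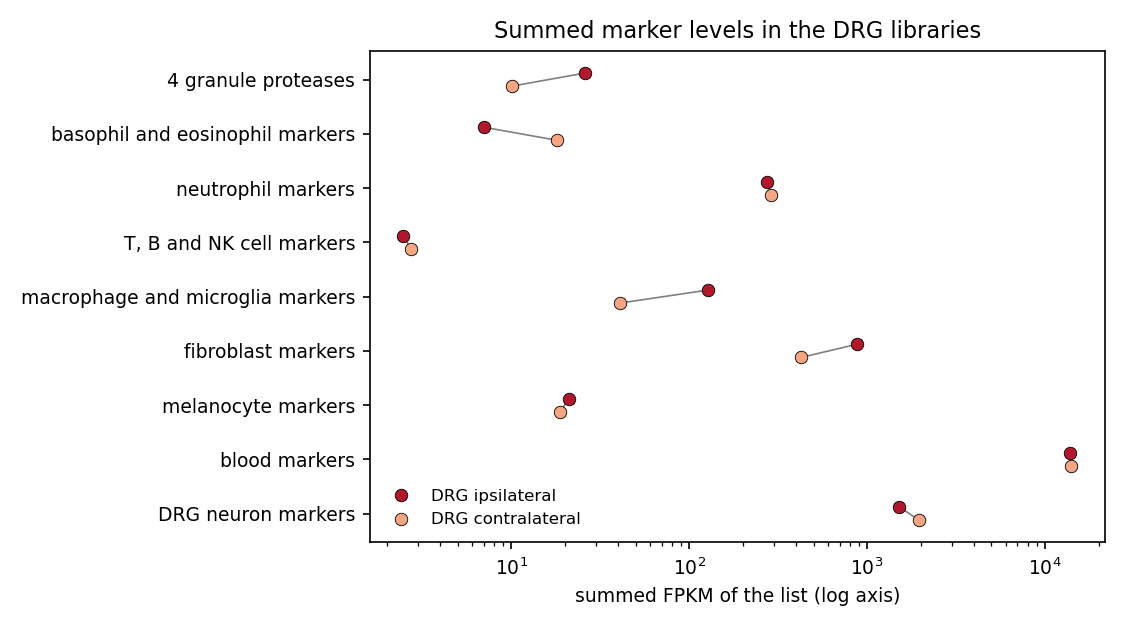
Summed FPKM of each marker list in the DRG libraries on a log axis, with dark red points ipsilateral and light points contralateral. The 4 protease genes stood at 25.8 and 10.1 FPKM in ipsilateral and contralateral DRG, beside macrophage genes at 127 and 40.8 FPKM and basophil and eosinophil genes at 7.07 and 18.2 FPKM.

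**Figure D4:**
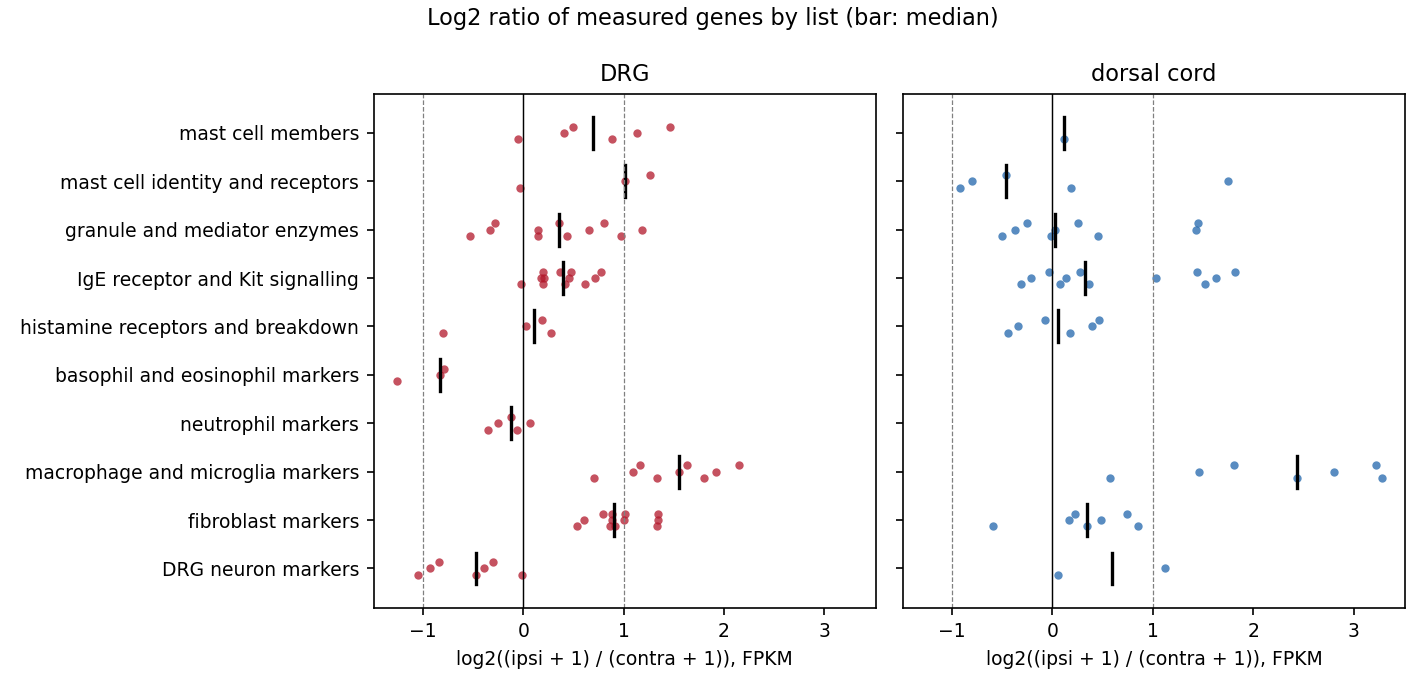
Log2 ratio of (ipsilateral + 1) over (contralateral + 1) FPKM for each measured gene, by list, in DRG (left panel) and dorsal cord (right panel), with black bars for medians, a solid line at 0 and dashed lines at -1 and 1. The mast cell members have a median of 0.69 over 6 genes in DRG, and in cord a single measured member, Kit, at 0.12.

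Features with the pattern most like that of the protease genes were found by the distance between log2(FPKM + 1) values centred over the 4 libraries, against the mean of Cma1, Mcpt4, Tpsb2 and Cpa3. Among 14259 features at 1 FPKM or more in any library, the nearest 5 were Retnla, Slc25a24, Nov, Fgl2 and Meox2, at distances of 0.068 to 0.14. Retnla, which encodes a secreted resistin-like protein, was at 5.44 FPKM in ipsilateral DRG and 2.13 FPKM in contralateral DRG and listed at 0 in both cord libraries. Meox2, a homeobox gene, was at 4.93 FPKM ipsilaterally and 2.46 FPKM contralaterally and also listed at 0 in cord. Slc25a24, Nov and Fgl2 differed from the protease genes in that they were above 0 in both cord libraries. Slc25a24 was at 0.58 FPKM in ipsilateral cord and 0.61 FPKM in contralateral cord. Nov was at 1.44 and 1.295 FPKM there, and Fgl2 at 1.53 and 1.37 FPKM. Single members lay farther from their own mean, with Tpsb2 at 0.33, Cma1 at 0.42, Cpa3 at 0.88 and Mcpt4 at 0.89, so these 5 features lay nearer to that mean than any of the 4 genes that make it up.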

How the data were processed

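The deposited tables hold 1 row per feature for each tissue. The submitters' processing notes name mouse build mm9, TopHat 1.4.0 and Cuffdiff 1.3.0; per the labels' protocols, RNA was extracted with a QIAGEN RNeasy Mini Kit and sequenced as Epicentre ScriptSeq libraries. Annotation, strand setting and filters are not given in the sources used here. Per the file headers, the authors' columns give FPKM per library, a log2 fold change, a test statistic, p-values and q-values of 1 library against 1, and a call at q up to 0.05. The number of per-sample columns set aside was 0.

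Ratios, lists and intervals were computed with Python 3.11.15, numpy 2.4.6 and pandas 2.3.3, with a pseudocount of 1 FPKM and a filter of 1 FPKM. Depth is unknown; relative depth came from 52 DRG and 20 cord features whose implied standard error is that of 1 read in each library, of which 50 and 20 shared 1 ratio. Locus starts in the files are counted from 0 (6303 spans match RefSeq lengths that way, against 435 counted from 1) and were moved to start from 1. Transcripts were aligned with Biopython 1.88, using the first coding transcript of each gene.

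The members and the 17 lists were chosen with earlier results of these data known; 1 gene of the Schwann cell list is not reported here. Named genes are all members, up to 4 genes a list and tissue past 2-fold or with the highest levels, and the 5 features nearest in pattern; further list genes were named after their values were seen. Alternatives are given at the end of the text.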

Additional observations from a re-analysis of the deposited data

Results flagged for a closer look

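Cd63, a tetraspanin of lysosomes and secretory granules, pointed in opposite directions in the 2 tissues, with an interval that leaves out 1 in each. Its log2 ratio was 1.26 in DRG, at 161 FPKM ipsilaterally and 66.6 FPKM contralaterally, and -0.92 in cord, at 53.4 FPKM ipsilaterally and 102 FPKM contralaterally. The fibroblast gene Dcn did the same, with log2 ratios of 1.01 in DRG (494 FPKM ipsilaterally and 245 FPKM contralaterally) and -0.59 in cord (4.42 and 7.19 FPKM). The authors' deposited table calls Cd63 in both tissues and Dcn in DRG, but not Dcn in cord (q = 0.206). Both genes came from a scan of all listed genes, and the share of such genes over all features was not computed. The difference between tissues was not tested.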

How the results depend on the processing

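The number of members at least 2-fold higher in DRG was 2, beside 3.04% of measured DRG features. It was 3 (Cma1, Mcpt4 and Tpsb2) at a pseudocount of 0.1 FPKM and 1 (Cma1) at 3 FPKM. The share over all features was not computed at those pseudocounts, so these counts cannot be set against it. By the plain ratio with both libraries above 0, an alternative added after seeing the data, it was 4 of 7 (Cma1, Mcpt4, Tpsb2 and Ms4a2), beside 7.65% of DRG features, and 1 of 2 in dorsal cord (Hdc), beside 9.51% of cord features. No member was 2-fold lower under any setting run. The log2 ratio of each member moved by less than its implied standard error under each setting that gave it a value, namely pseudocounts of 0.1 and 3 FPKM, the 2 rescalings, the filters, the test status and the plain ratio. Of 213 values recomputed for members and list medians, 201 stayed within that error or within 1.5 times a count, and 12 moved. The sign of the histamine list's DRG median turned from 0.11 to -0.39 at a filter of 5 FPKM and to -0.12 by the plain ratio; no other value changed sign. The median of the mast cell receptors and regulators in DRG depended on the filter, at 1.02 over 3 genes and 0.07 over all 14 without a filter. No paired analysis was possible because the labels give no replicate numbers and each group has 1 library. Depth limits Ms4a2, Cma2 and Hdc in cord, whose intervals span from under 1 to above 10.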
